A study of Homo sapiens with 2 samples.

Results

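The epithelial-mesenchymal transition (EMT) genes described here are the transcription factors ZEB1, ZEB2, SNAI1, SNAI2 and TWIST1, the splicing factors ESRP1 and ESRP2, the cadherins CDH1 and CDH2, and the intermediate filament gene VIM. They were chosen by name, as the transcript clusters whose only annotated gene symbol was one of these 10, with the brightest cluster kept where a gene had several. Of the 10 genes, 9 had such a cluster, out of 33616 genes measured in this way. ESRP2 had none, because its row of the annotation names 2 genes, and it is not analysed here. The cells were Hep3B, an established human line from a hepatocellular carcinoma, and RNA came from a line in which SOX4 was knocked out with CRISPR/Cas9 and from the parental line with wildtype SOX4. Puromycin at 1 ug/ml was in the medium of the knockout line and not in that of the parental line. The sources used here do not say whether the knockout line came from a single clone. There was 1 array per genotype, which leaves no replicate spread and allows no test. Genotype, puromycin, selection and array cannot be told apart, and words such as "higher" or "lower" hold for these 2 arrays only.

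Epithelial cells hold to each other through E-cadherin, the product of CDH1, whose inner end is tied to the actin skeleton by catenins. In EMT, as described in embryos and carcinomas, the zinc finger factors ZEB1, ZEB2, SNAI1 and SNAI2 and the helix-loop-helix factor TWIST1 lower CDH1 and other epithelial genes, while N-cadherin (CDH2) and vimentin (VIM) become more abundant. ESRP1 and ESRP2 are RNA-binding proteins that set epithelial splicing, and ZEB1 is known to repress ESRP1. MicroRNAs of the miR-200 family lower ZEB1 and ZEB2, which in turn repress the microRNA genes. Hepatocytes are an epithelium that has E-cadherin, and carcinoma lines of the liver differ widely in where they lie between both states.

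The targeted gene SOX4 stood at 12.44 in knockout cells and 13.14 in parental cells. Levels are given on the log2 scale of the deposited table and each difference as the knockout value less the parental value, so that SOX4 stood at -0.70. No label states the base of the log, and 2-fold calls and fold values assume base 2, the one RMA writes. The probes measure transcript, so loss of the protein is not seen by them. The hepatocyte character of the cells was plain in both arrays, with all 11 measured hepatocyte markers above the level filter. Of these, 8 were below 0 and 2 at least 2-fold lower, with a median difference of -0.30. The fetal protein AFP stood at 9.73 against 15.50 and the apolipoprotein APOA1 at 11.27 against 12.44, while albumin (ALB) stood at 18.84 and 18.87. The level filter used throughout asks that the higher of both values exceed 4.78, which 1 gene in 2 does. Of endothelial, leukocyte and fibroblast or stellate markers, 2 of 10, 3 of 9 and 7 of 12 measured genes passed it. PTPRC, which marks leukocytes, stood at 4.72 and 4.76, and PECAM1, which marks endothelium, at 3.76 and 4.27. The leukocyte genes past the filter included LYZ at 11.87 against 9.62 and CD68 at 11.41 against 10.32. Of 7 measured bile duct markers 5 passed, with SPP1 at 7.77 against 5.25 and KRT19 at 14.43 against 14.35. The markers named here were picked after their values were seen.

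Of the 9 genes, ZEB1 was at least 2-fold higher in knockout cells, and ESRP1 and SNAI2 were at least 2-fold lower. The genes were chosen with earlier results of these data known, so this count is not independent of that choice. Of the 16808 genes above the level filter, 6.50% were higher by 2-fold or more and 3.64% lower, 10.1% either way. Among the protein-coding genes of that set the shares were 8.28% and 4.27%, 12.6% either way. With no level filter they were 3.36% and 1.94% of 33616 genes, 5.30% either way. ZEB1, SNAI2, ESRP1, CDH1, CDH2 and VIM passed the filter, and ZEB2, SNAI1 and TWIST1 lay under it in both arrays. SNAI2 passed only through its parental value, so that its difference and its passing are not separate facts. Differences between the 9 genes ran from -2.94 to 2.51, with a median of -0.12. The median over all 33616 genes was 0.00.

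**Figure D1:**
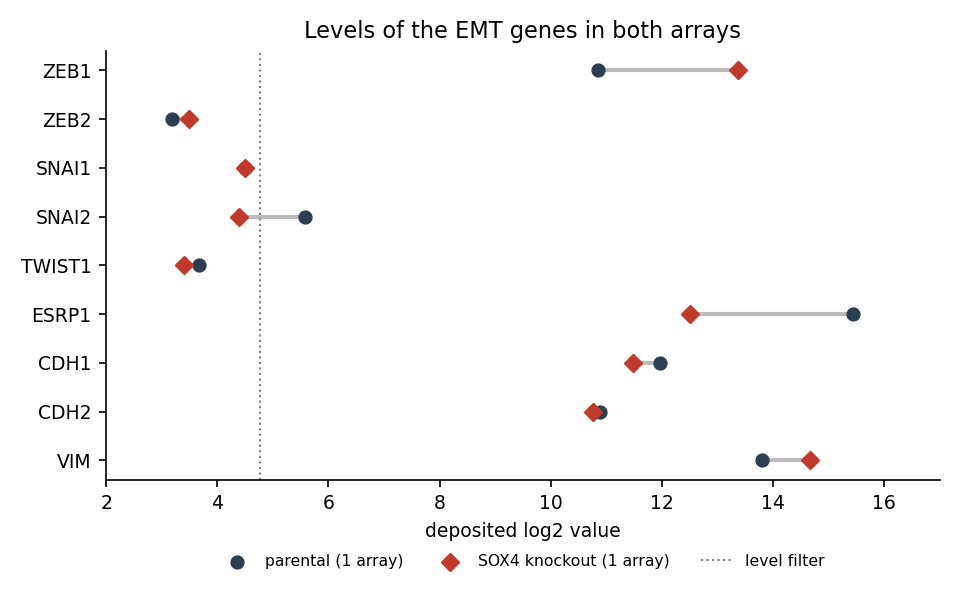
Deposited log2 values of the 9 measured EMT genes (x axis) in the SOX4 knockout array (diamonds) and the parental array (circles), with the level filter of 4.78 as a dotted line. ZEB1 and ESRP1 have the longest bars and opposite directions, CDH1 and CDH2 have short bars, and ZEB2, SNAI1 and TWIST1 lie left of the filter.

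ZEB1, the repressor of epithelial genes, was the EMT factor with the largest difference. Its cluster stood at 13.36 in knockout cells and 10.85 in parental cells, a difference of 2.51, or 5.71-fold. It ranked 130 from the top among the 16808 genes above the filter. Of 1145 other genes whose mean level was no more than 0.5 log2 away, 5 were higher by at least as much. ZEB2, its paralog, stood at 3.50 and 3.18, under the filter in both arrays. The differences of ZEB1 and ZEB2 were 2.19 apart on the log2 scale. ZEB1-AS1, a non-coding RNA read from the opposite strand beside ZEB1, was at 8.06 in knockout cells and 7.71 in parental cells, a difference of 0.35. ZEB2-AS1 stood at 3.16 and 3.22, also under the filter.

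The SNAI factors and TWIST1 did not share the higher value of ZEB1. SNAI2, or Slug, stood at 4.39 in knockout cells and 5.58 in parental cells, a difference of -1.20 or 2.29-fold, and the knockout value lay under the level filter. SNAI1, or Snail, was at 4.50 in both arrays, with values equal to all 5 decimals of the file. Such equal values occurred in 1950 of 135750 transcript clusters, or 1.44%, most of them dim, with a median of 3.28. Clusters in general were dim too, with medians over all of them of 3.80 in knockout cells and 3.83 in parental cells. TWIST1, which acts in mesoderm and neural crest, was at 3.40 and 3.67, a difference of -0.26. No detection calls were at hand, so whether ZEB2, SNAI1 and TWIST1 gave signal above background was not tested.

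ESRP1, the epithelial splicing factor, was the lowest of the 9 genes against the parental array. It stood at 12.50 in knockout cells and 15.44 in parental cells, a difference of -2.94, or 7.69-fold. Its rank from the low end among genes above the filter was 22. Of 672 other genes no more than 0.5 log2 away in mean level, 0 were lower by as much, and likewise 0 of the 1351 genes at least as bright by mean level. Both sets go by the mean, which a much lower knockout value pulls down, so they leave out AFP. That gene stood at 15.50 in parental cells, above ESRP1, with a difference of -5.77. The ESRP1 transcript was still well above the filter in knockout cells. Its difference and that of ZEB1 were 5.46 apart.

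**Figure D2:**
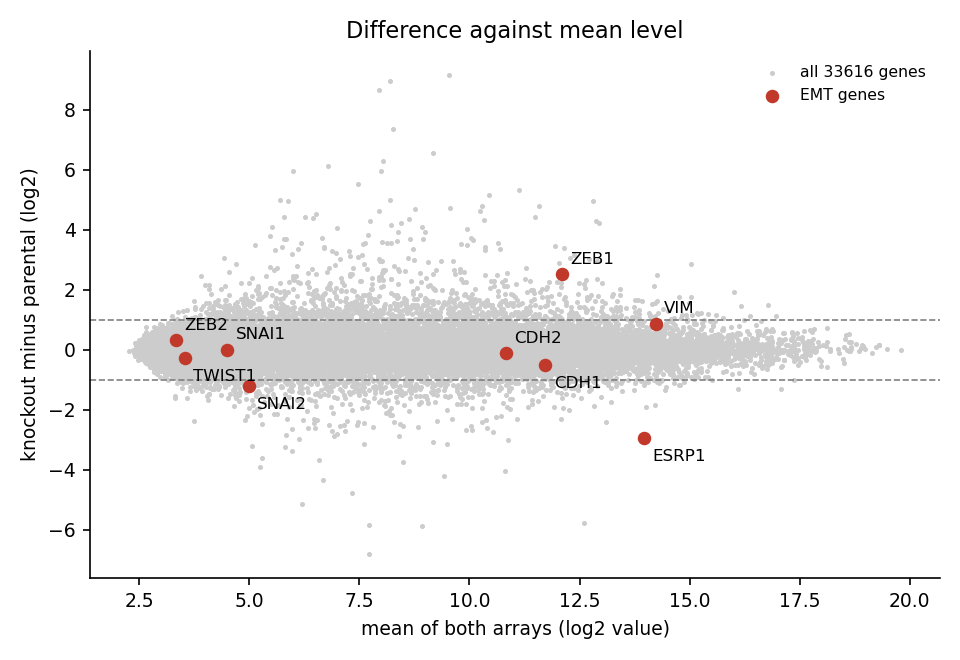
Difference between knockout and parental array (y axis, log2) against the mean of both arrays (x axis, log2 value) for all 33616 genes (grey) and the 9 EMT genes (red), with dashed lines at 2-fold. ESRP1 lies below every gene whose mean of both arrays is at least as high. ZEB1 lies near the upper edge at its level, and CDH1 and CDH2 lie inside the grey band.

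E-cadherin and N-cadherin transcripts differed by less than 2-fold between the arrays. CDH1 stood at 11.48 in knockout cells and 11.97 in parental cells, a difference of -0.50, or 1.41-fold lower. Among genes above the filter, 33.4% were at least that far apart in either direction. CDH2 stood at 10.77 and 10.89, a difference of -0.12, and 79.5% of genes were at least that far apart. Neither cadherin thus stood out from the bulk of genes. The difference of ZEB1 exceeded that of CDH1 by 3.01.

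Vimentin, the main intermediate filament of mesenchymal cells, was higher in knockout cells without reaching 2-fold. The brightest VIM cluster stood at 14.67 against 13.80, a difference of 0.87, or 1.82-fold. Among genes above the filter, 13.7% were at least that far apart. A second cluster with the same symbol, which has no Entrez identifier in the annotation, went the other way, at 4.89 against 5.47, a difference of -0.59. The mean of both clusters gives 0.14, so the size rests on the choice of cluster. The sign turned only with the dimmer cluster taken alone. VIM-AS1, an antisense transcript at the locus, stood at 5.53 against 4.46, a difference of 1.07, with the parental value under the filter. The sources used here do not say whether signals of opposite strands were kept apart.

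Positions on the chromosomes were compared with the order of genes in RefSeq for GRCh38.p14, taking the 5 nearest measured protein-coding genes on each side. The 10 neighbours of ZEB1 on chromosome 10 had a median difference of 0.22, from -1.05 for the kinase gene MAP3K8 to 1.66 for the zinc finger gene ZNF438. ZNF438 and ARHGAP12, which lie on either side of ZEB1, were both higher in knockout cells, ARHGAP12 by 0.83. ESRP1 on chromosome 8 had neighbours with a median of -0.23, 8 of 10 of them below 0. They ran from -1.82 for TP53INP1, a stress-induced gene, to 0.45 for TMEM67, a gene of the cilium. VIRMA and DPY19L4, the nearest on either side, stood at -0.16 and -0.22, far less than the -2.94 of ESRP1 itself. The neighbours of ZEB2 on chromosome 2 were lower in knockout cells in 9 of 10 cases, with a median of -0.66, while ZEB2 stood at 0.32. They reached from -1.73 for the chromatin gene MBD5 to 1.42 for KYNU, an enzyme of tryptophan breakdown. Neighbour medians of SNAI2, CDH1, CDH2, VIM, SNAI1 and TWIST1 were -0.22, 0.01, 0.14, 0.07, 0.13 and 0.18. All 10 neighbours of SNAI1 were above 0, from 0.01 for PTPN1 to 0.58 for ZNFX1, while SNAI1 itself stood at 0.00. That run was one-sided by sign, with smaller differences than beside ZEB2. DNA copy number was not measured here, and its part in these differences was not tested.

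**Figure D3:**
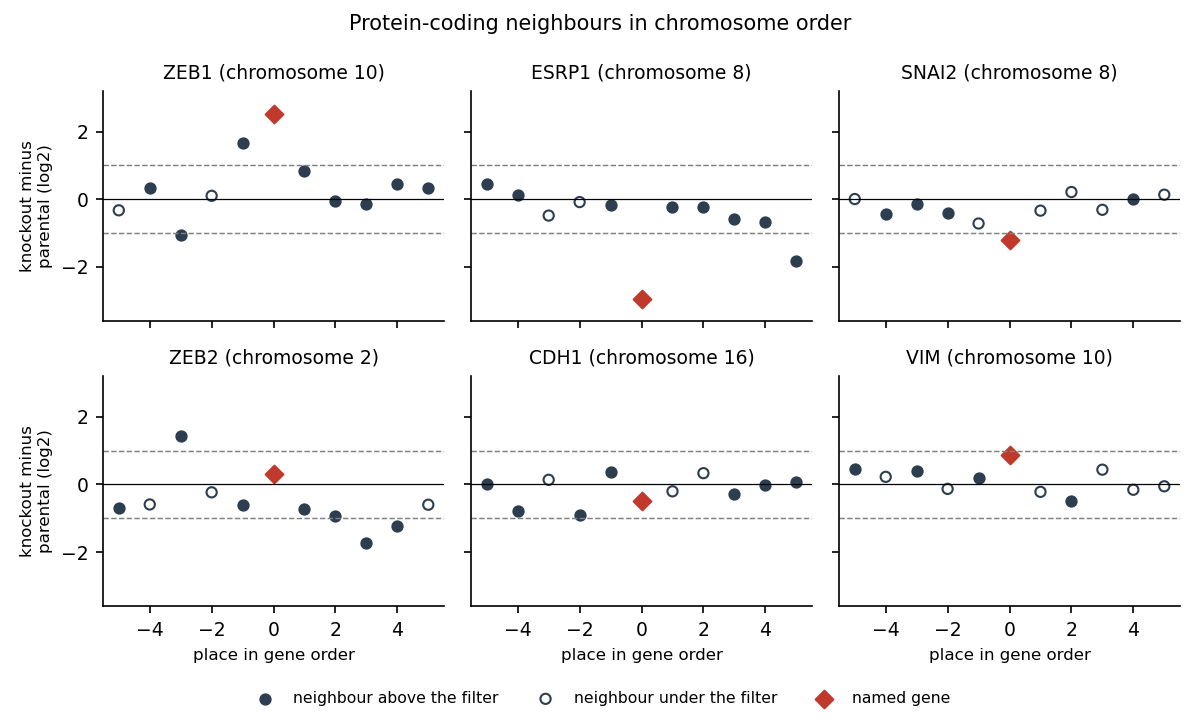
Knockout minus parental difference (y axis, log2) of ZEB1, ESRP1, SNAI2, ZEB2, CDH1 and VIM (red diamonds) and of up to 5 protein-coding neighbours on each side (circles, open where under the level filter) by place in gene order (x axis), with dashed lines at 2-fold. ESRP1 lies far below its neighbours, ZEB1 lies above ZNF438 and ARHGAP12, and 9 of 10 neighbours of ZEB2 lie below 0.

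MicroRNAs of the miR-200 family are shown because they are the best known inhibitors of ZEB1 and ZEB2. The 3p forms and miR-429, taken from RefSeq (GRCh38.p14), fall into 2 groups by seed, bases 2 to 8, which are in capitals. Other mature forms of these genes are not shown. The genes MIR200B, MIR200A and MIR429 lie on chromosome 1, and MIR200C and MIR141 on chromosome 12.
miR-200b-3p: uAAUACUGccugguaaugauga
miR-200c-3p: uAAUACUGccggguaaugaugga
miR-429: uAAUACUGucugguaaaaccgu
miR-200a-3p: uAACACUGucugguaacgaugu
miR-141-3p: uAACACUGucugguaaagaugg

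The precursor clusters of these microRNAs were dim in both arrays. MIR200B stood at 3.72 in knockout cells and 3.54 in parental cells. MIR200C stood at 2.81 and 2.92, and MIR429 at 2.96 and 3.12. In the group with the other seed, MIR200A stood at 2.63 and 2.58 and MIR141 at 2.94 and 2.98. The 7 measured precursors of the miR-200, miR-203 and miR-34 families all lay under the level filter, with a median difference of 0.01. Mature microRNAs were not measured by these clusters, so their levels beside the higher ZEB1 are not known.

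The E2-box, CACCTG on one strand and CAGGTG on the other, is the sequence that ZEB and SNAI proteins bind, and it also falls under the wider E-box form CANNTG bound by many helix-loop-helix factors. It was searched on both strands in the 250 bases before each start site in the RefSeq promoters (GRCh38.p14). Of 35116 such windows, 17.5% held it, and 20.6% of 27305 genes had it in at least 1 window. In a list of epithelial genes known to be repressed by ZEB and SNAI factors, 11 of 14 genes with a promoter in the table held it, or 78.6%. In a list of mesenchymal genes 3 of 18 did, or 16.7%. The epithelial genes were listed as known targets of factors that bind this sequence, so their share is not independent of that choice. Of the EMT genes, ZEB1, ZEB2, CDH2 and VIM were in the table, and ZEB1 alone of these 4 held a match. ZEB1 also had most of their 11 windows, and so more places for a match. Of the 11 windows 2 held it, or 18.2%, near the 17.5% of all windows. A match is a description of letters and does not show binding. The windows below show ZEB1 upstream of its first listed start, and the polarity gene CRB3, the vesicle traffic gene RAB25 and the tight junction gene OCLN, with matches in capitals. The genes shown were picked after their values were seen.
ZEB1, chr10:31318167-31318416, plus strand: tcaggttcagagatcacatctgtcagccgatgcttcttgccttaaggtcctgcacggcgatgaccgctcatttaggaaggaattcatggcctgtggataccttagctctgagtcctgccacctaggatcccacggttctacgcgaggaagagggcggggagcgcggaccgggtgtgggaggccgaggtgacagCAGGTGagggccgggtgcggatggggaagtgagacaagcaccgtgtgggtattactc
CRB3, chr19:6464021-6464270, plus strand: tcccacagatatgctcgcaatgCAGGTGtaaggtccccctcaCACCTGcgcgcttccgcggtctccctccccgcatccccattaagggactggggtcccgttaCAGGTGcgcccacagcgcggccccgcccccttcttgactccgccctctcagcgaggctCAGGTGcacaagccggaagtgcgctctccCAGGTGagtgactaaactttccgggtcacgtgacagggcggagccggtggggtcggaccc
RAB25, chr1:156060910-156061159, plus strand: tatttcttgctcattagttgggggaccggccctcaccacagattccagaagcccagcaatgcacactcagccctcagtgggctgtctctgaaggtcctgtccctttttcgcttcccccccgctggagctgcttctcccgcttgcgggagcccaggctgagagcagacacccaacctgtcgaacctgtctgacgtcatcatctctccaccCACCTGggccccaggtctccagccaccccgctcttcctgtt
OCLN, chr5:69492297-69492546, plus strand: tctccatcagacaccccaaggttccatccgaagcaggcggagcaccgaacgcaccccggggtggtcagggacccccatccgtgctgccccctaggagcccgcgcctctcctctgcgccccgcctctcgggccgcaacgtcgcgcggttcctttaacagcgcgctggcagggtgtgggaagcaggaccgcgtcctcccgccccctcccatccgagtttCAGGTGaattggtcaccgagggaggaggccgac

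CRB3 held 5 matches and each of the other 3 windows shown held 1. ZEB1 had 7 windows in the table, of which 2 held a match, and the match shown began 57 bases before the first listed start site. In the data, CRB3 stood at 9.05 in knockout cells and 9.47 in parental cells, a difference of -0.42. OCLN, or occludin, stood at 14.14 and 14.74, a difference of -0.60. RAB25 was the only gene of the epithelial list past 2-fold, at 3.70 against 4.84, a difference of -1.13 that rests on a parental value just above the filter. Among the 8 genes of the list that held the E2-box and passed the level filter, 6 were below 0, with a median of -0.41. Of all 16808 genes above the filter, 7824 were below 0. CDS1, an enzyme of phospholipid synthesis, and MAP7, which binds microtubules, were the exceptions at 0.78 and 0.33. Of the 3 measured genes of the list with no match, 1 passed the filter, MARVELD2 at -0.47. Over all 15 genes of the list that passed the filter the median was also -0.41, so it was not particular to those with a match. The part of E2-boxes in these values was not tested.

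Over the whole epithelial list, 15 of 23 measured genes passed the filter, of which 0 were higher and 1 was lower by 2-fold or more. Among all genes above the filter the shares were 6.50% and 3.64%. The median difference was -0.20 over all 23, with 16 below 0, and -0.41 over the 15. Of all 33616 genes, 16705 were below 0. The median over all genes above the filter was 0.04. ERBB3, a receptor of neuregulins, stood at 12.27 against 13.00, a difference of -0.74. SPINT1, an inhibitor of membrane proteases, stood at 11.90 against 12.52, a difference of -0.62. EPCAM, an adhesion protein of epithelia and of liver progenitors, was at 16.40 against 16.80, and was picked after its values were seen. These differences were small and mostly below 0, and no gene of the list approached the size seen for ESRP1.

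Mesenchymal genes were split. Of 28 measured, 18 passed the filter, of which 4 were higher and 3 lower by 2-fold or more. Over all genes above the filter the shares were 6.50% and 3.64%. Medians were -0.01 over the 28 and 0.40 over the 18. Lumican (LUM), a matrix proteoglycan, stood at 12.69 in knockout cells against 7.90, a difference of 4.79. Fibrillin (FBN1) stood at 10.16 against 7.59, the fibronectin receptor subunit ITGA5 at 10.91 against 9.32, and the ectonucleotidase NT5E at 13.91 against 12.54. Lower were COL5A2, a fibrillar collagen, at -1.21, LOX, which crosslinks collagen, at -1.17, and TAGLN, an actin-binding protein of smooth muscle, at -1.07. LOX and TAGLN were picked after their values were seen. LUM also belongs to the fibroblast and stellate markers, where 7 of 12 measured genes passed the filter and 1, LUM, was past 2-fold. The median level of those 12 markers was 5.54 in knockout cells and 5.66 in parental cells, and COL1A1 stood at -0.45. The part of other cells in the LUM value was not tested.

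**Figure D4:**
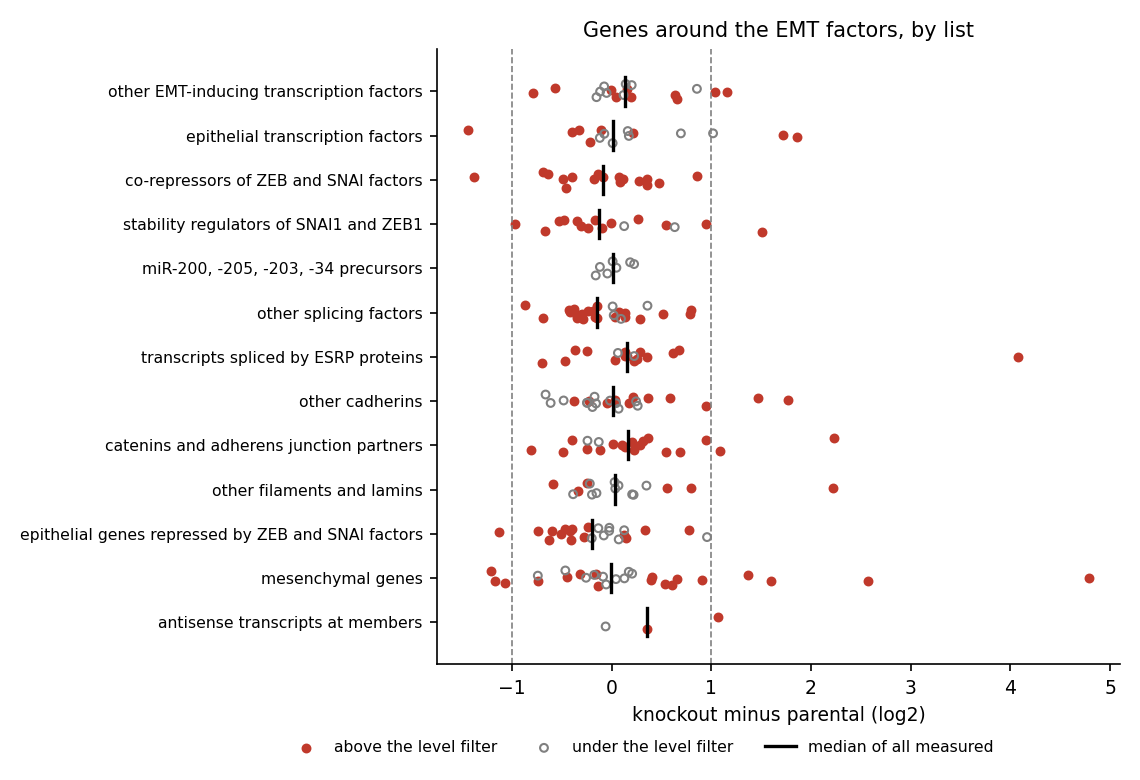
Knockout minus parental difference (x axis, log2) for the measured genes of 13 lists around the EMT factors, with filled points for genes above the level filter, open points for genes under it, black bars at list medians and dashed lines at 2-fold. List medians lie between -0.20 and 0.35, and single genes such as CD44 and LUM lie far to the right.

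Other transcription factors that can drive EMT had a median near 0, with single genes on both sides of it. Of 18 measured, 10 passed the filter, with medians of 0.13 over the 18 and 0.18 over the 10. Of the 10, 2 were higher by 2-fold or more and 0 lower, against 6.50% and 3.64% of all genes above the filter. FOSL1, an AP-1 subunit, stood at 5.67 against 4.51, and RUNX2, the osteoblast factor, at 5.32 against 4.28, each with a parental value under the filter. LEF1, a partner of beta-catenin, was 0.66 higher, and TCF3, which binds E-boxes, stood at -0.79. Transcription factors that keep epithelial state went both ways, with 2 of the 8 that passed the filter higher by 2-fold or more, 1 lower, and a median of 0.01 over the 15 measured. KLF5, a factor of proliferating epithelia, stood at 11.74 against 9.88, and ELF3, an epithelial ETS factor, at 7.82 against 6.10. ELF5, another ETS factor, stood at 5.81 against 7.25, a difference of -1.44, and the gut factor CDX2 at -0.40.

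Genes for proteins that work with or act on ZEB and SNAI factors had medians close to 0. The median of 17 co-repressors, all above the filter, was -0.08. Of these 17, 0 were higher by 2-fold and 1 was lower, against 6.50% and 3.64% of all genes above the filter. That gene was SIRT1, a protein deacetylase, at 10.54 against 11.92, a difference of -1.38. SIN3A, a scaffold of deacetylase complexes, stood at 0.86, HDAC2 at -0.69 and the remodelling ATPase SMARCA4 at -0.64. Another list held genes tied to the stability of SNAI1 or ZEB1 protein. Of 16 measured, 14 passed the filter and 1 was past 2-fold, with a median of -0.13 over the 16. BTRC, the ubiquitin ligase subunit that marks phosphorylated SNAI1 for breakdown, stood at 11.44 against 9.93, a difference of 1.51. The kinase gene PRKD1 stood at 0.95 and the ligase subunit gene FBXL14 at -0.66. The checkpoint kinase gene CHEK1, also on the list, stood at -0.97, and whether it acts on these proteins was not checked here.

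No other splicing factor measured of epithelial and mesenchymal programs differed as much as ESRP1. Of 27 measured, 23 passed the filter, and 0 of them were 2-fold apart in either direction, against 10.1% of all genes above the filter. A list of 23 genes is too small to tell 0 from that share. They ran from -0.87 for TIA1 to 0.80 for RBM24, with a median of -0.15 over the 27. RBM47, an epithelial RNA-binding protein, stood at 10.84 against 10.05, a difference of 0.78, and PTBP2, the neural polypyrimidine tract protein, at -0.69. Transcripts whose exons ESRP proteins are known to choose were near level in total signal, with 1 of the 15 that passed the filter higher by 2-fold or more, 0 lower, and a median of 0.15 over the 17 measured. That transcript was CD44, the hyaluronan receptor, at 9.03 against 4.95, a difference of 4.07, while its second cluster stood at 3.33 and 2.91, under the filter. FGFR2, whose epithelial receptor form depends on ESRP1, stood at 11.06 against 11.76, a difference of -0.70. ENAH, an actin regulator, was 0.62 higher. Values per exon were not used here, so splicing itself was not analysed.

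CDH1 and CDH2 differed less than some other cadherins. Of 24 further cadherin genes measured, 11 passed the filter. Of these 11, 2 were higher by 2-fold or more and 0 lower, against 6.50% and 3.64% of all genes above the filter. The median over the 24 was 0.01. CDH6, or K-cadherin, a type II cadherin of kidney and of some carcinomas, stood at 15.64 in knockout cells against 13.88, a difference of 1.77. CDH7 stood at 9.44 against 7.97, a difference of 1.47. CDH11, the osteoblast cadherin, was at 6.69 against 5.75, a difference of 0.94. CDH8 was 0.59 higher, at 5.13 against 4.55, and CDH9 at -0.38 was the lowest of the 11, at 4.63 against 5.01. Each of these 2 genes had 1 value under the filter. CDH3, or P-cadherin, the nearest neighbour of CDH1 on chromosome 16, stood at 8.17 against 7.81.

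Catenins and other partners of the cadherins were above the filter in 18 of 20 cases. Of the 18, 2 were higher by 2-fold or more and 0 lower, against 6.50% and 3.64% of all genes above the filter. The median over the 20 was 0.17. CTNNA2, the neural alpha-catenin, stood at 7.27 against 5.04, a difference of 2.23, and its dimmer cluster at 3.96 against 3.44. VCL, or vinculin, which ties junctions to actin, stood at 12.11 against 11.02, a difference of 1.09. PKP4, a relative of p120 catenin, was 0.95 higher. JUP, or plakoglobin, was lowest at 10.95 against 11.75, a difference of -0.80. The alpha-catenin and beta-catenin genes of epithelia, CTNNA1 and CTNNB1, were picked after their values were seen, and stood at 0.01 and 0.69.

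**Figure D5:**
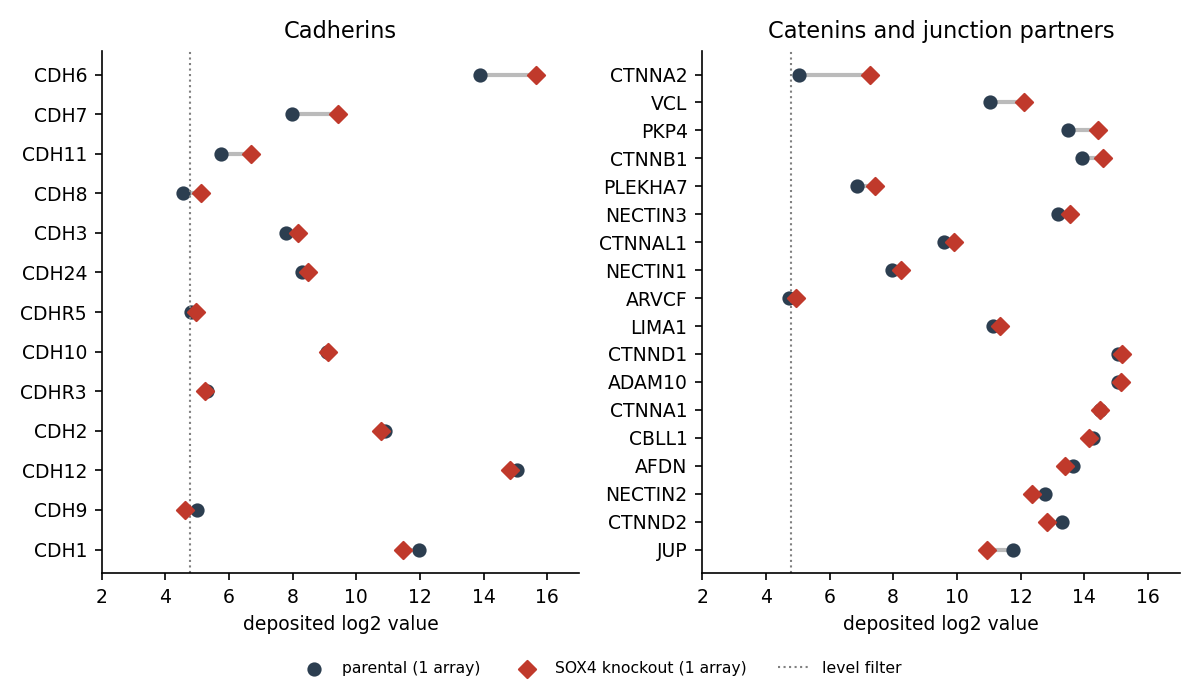
Deposited log2 values (x axis) of the cadherins and of catenins and junction partners above the level filter in knockout cells (diamonds) and the parental array (circles), sorted by difference. CDH6, CDH7, CTNNA2 and VCL are more than 2-fold higher in knockout cells, while CDH1 and JUP lie at the lower ends.

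Beside VIM, the other filament genes of the non-keratin kind were measured in 16 cases, of which 6 passed the filter. Of those 6, 1 was at least 2-fold higher and 0 were lower, against 6.50% and 3.64% of all genes above the filter. The median over the 16 was 0.03. LMNA, which codes for the A-type lamins of the nuclear envelope, stood at 13.60 in knockout cells against 11.39, a difference of 2.22, or 4.65-fold. SYNM, or synemin, a partner of vimentin, stood at 10.21 against 9.41, a difference of 0.80. PLEC, or plectin, which crosslinks filaments, was 0.56 higher, and BFSP1, a lens filament gene, stood at -0.59. LMNA thus differed by more than VIM between the same arrays.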

How the data were processed

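Total RNA from 2 Hep3B lines was measured on 1 Affymetrix array each. The deposited table holds values taken as log2. Per the submitters' processing notes, the tools were RMA, which corrects background, normalizes and summarizes probes, and Transcriptome Analysis Console. Their versions, the genome build and the base of the log are not stated in the sources used here, and base 2 is assumed. The labels name one whole-transcript array, the platform annotation used for names implies another, and the design was not settled here. Values reach 19.80 and 19.82, above the 16 bits of a scanner, so folds hold on the deposited scale only. Names came from the platform annotation, with 36176 clusters of 1 symbol, of which 25516 matched RefSeq by Entrez identifier. With 1 array per genotype, differences were counted at 2-fold and no test was run, and the number of arrays limits precision. The counting was tested on simulated data with the SD of differences under the filter, 0.30, against 0.70 above it. That test checks the steps and not the counts found here. Named were the 10 EMT genes, SOX4, and per list the genes above the filter with the 4 largest differences, the highest and the lowest, unless said otherwise. Of these, 1 gene is not reported here. The genes and lists were chosen with earlier results of these data known. Arrays were also centred, quantile normalized or freed of the level trend (running median over 501 genes), and clusters of a gene averaged. Work used Python 3.11.15, numpy 2.4.6 and pandas 2.3.3.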

Additional observations from a re-analysis of the deposited data

How the results depend on the processing

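No paired analysis was possible because there was 1 array per genotype, and no replicate could be left out. ZEB1, ESRP1 and SNAI2 stayed past 2-fold in the same direction with centred arrays, quantile normalization and removal of the level trend. Each has 1 cluster, so the choice of cluster could not move them. The list medians moved by less than 0.30, the SD of differences among genes under the level filter. That SD is of single genes and exceeds most of these medians in size, so it is a wide yardstick for them. Some medians near 0 changed sign. The co-repressor median went from -0.08 to 0.05 with clusters averaged. For the other cadherins it went from 0.01 to -0.02 with quantile normalization. VIM moved from 0.87 to 0.14 with its clusters averaged and to -0.59 with its dimmer cluster. At 1.5-fold, 2 EMT genes were higher, and over all genes above the filter 2605 were higher and 1882 lower, against 1093 and 612 at 2-fold. With the upper quartile as level filter, 643 and 332 genes were 2-fold higher and lower, and 1 EMT gene, ESRP1, was lower. Dim values limit SNAI2, SNAI1, TWIST1 and ZEB2.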
